A study of Mus musculus with 2 samples.

Results

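Spliced transcript models that follow an annotated mouse transcript from its first introns and stop before the last ones were described in adrenal gland RNA. In the authors' classes these are incomplete splice matches (ISM) of the Prefix subtype, that is, models whose introns are the first introns of an annotated transcript without the rest. A member had at least 2 exons and at least 5 reads in either library. By this rule there were 1773 members, of 117113 spliced models of all classes after models with the same chromosome, strand and introns were merged between the libraries. They came from 1156 genes. The members were chosen by their read counts in these libraries, so their number and levels are a description. At the edge of the rule, 408 prefix models of replicate 1 and 166 of replicate 2 had 4 reads, and 280 and 105 had 5.

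The study read RNA of adrenal gland tissue of C57BL/6J mice from The Jackson Laboratory as long molecules, in 1 group of 2 libraries numbered as biological replicates. The libraries are separate biosamples with the same donor entry, so the spread between them may in part be technical. A description calls the tissue male, while sex was not recorded in its own field and the age is unknown. No treatment, genotype or time was compared, and every test given here compares the libraries and not conditions.

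Replicate 1 held 848782 reads and replicate 2 held 545229, so that 1 read was 1.18 and 1.83 CPM, the unit that scales each library to the same total. Genes of the adrenal cortex and medulla were read deeply in both libraries, the summed level of the 4 cortex markers being 43956 and 76608 CPM and that of the 4 medulla markers 9399 and 22963 CPM. The 3 kidney markers had 0 reads in both, 3 fat markers summed to 201 and 42.2 CPM, and 2 haemoglobin genes to 1304 and 97.2 CPM. Weighted by reads, known transcripts had a median length of 1648 bases in the first library and 2740 in the second, and this difference is given again beside the results that it moves with.

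A messenger RNA is finished when the nascent transcript is cut and given a poly(A) tail, usually after the signal AATAAA or a close variant. Cutting inside an intron gives a shorter RNA with an unspliced last exon, and cutting earlier in the last exon shortens the untranslated region. U1 small nuclear RNA is known for holding back such cuts, Pcf11 for favouring early ones, and Cstf3 for an intronic site in its own gene. In sequenced cDNA an incomplete model can also stop at a place where the copy, and not the RNA, ended. The sources used here do not state how the cDNA was primed.

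The sequences of 6 of the most abundant members near their ends are shown because adenine-rich windows were more frequent at members than at other exon ends, with the shares given further on. For each model the 20-base window with the most adenines within 300 bases of the 3′ end, chosen for that count, is in capitals, between 20 flanking bases on either side, read 5′ to 3′ on the transcript strand from GENCODE M21 transcripts (GRCm38). All of them lie in coding sequence. Hsp90ab1, Hspd1, Srrm2 and Dnaja1 were named by rule for their level, and Son and Eif5, which the same rule names as members, were added to the sequences after their values were seen.
Hsp90ab1, chr17:45570383-45570442, minus strand, exon 6: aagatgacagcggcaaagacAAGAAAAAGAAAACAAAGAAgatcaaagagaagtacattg
Hspd1, chr1:55080131-55080190, minus strand, exon 9: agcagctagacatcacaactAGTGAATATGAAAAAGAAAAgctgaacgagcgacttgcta
Srrm2, chr17:23809988-23810413, plus strand, across the junction of exons 5 and 6: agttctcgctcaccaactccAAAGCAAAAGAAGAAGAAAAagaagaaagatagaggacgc
Dnaja1, chr4:40726130-40726189, plus strand, exon 4: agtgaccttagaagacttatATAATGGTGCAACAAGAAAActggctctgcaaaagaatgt
Son, chr16:91654689-91654748, plus strand, exon 3: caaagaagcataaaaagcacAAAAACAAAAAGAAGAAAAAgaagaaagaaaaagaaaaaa
Eif5, chr12:111541712-111541771, plus strand, exon 7: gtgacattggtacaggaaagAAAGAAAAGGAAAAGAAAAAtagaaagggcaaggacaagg
The windows held 16 adenines in Hsp90ab1, 13 in Hspd1, 15 in Srrm2, 11 in Dnaja1, 17 in Son and 16 in Eif5. Counted from the first base after the model's end, the window of Son began at 0 bases, that of Srrm2 at 1, that of Eif5 at 4 and that of Hsp90ab1 at 22, while those of Hspd1 and Dnaja1 began 69 and 269 bases before it. Dnaja1 had the poorest and most distant window of these 6. Its 11 adenines are below the median of 12 at other internal exon ends of the members' transcripts. Among the 10 exon-ending members of highest mean level, those not shown here all had windows that began before the end. The window of Psmd1 began 51 bases before it, that of Hsp90b1 29 and that of Map1b 219.

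Members made up 3.62% of the reads of replicate 1 (95% exact Clopper-Pearson interval 3.58 to 3.66). In replicate 2 the share was 1.37% (1.34 to 1.40), and the mean was 2.49% ± 1.59 (SD, n = 2). Intervals cover counting error only. In replicate 1, 1512 models had 5 reads or more and in replicate 2 480, with 219 in both. Most members were not deep, with a median of 9 reads in each library. A single model of Hsp90ab1 held 11.4% of the member reads of replicate 1, whereas the deepest model of replicate 2, of Psmd1, held 3.21%. Most genes, 796 of 1156, had 1 member, 25 genes had 5 or more, and the largest number was 9, in the proprotein convertase gene Pcsk5.

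Nearly all members began where an annotated transcript begins, 98.8% of those of replicate 1 and 97.5% of those of replicate 2 starting exactly at such a base. Read starts were not compared with these model starts, so whether the reads reached the 5′ end was not tested. Members kept a median of 50% of the introns of the shortest matching transcript in replicate 1 and 70% in replicate 2, and lost a median of 5 and 4 introns. The models of replicate 2 were longer, with a median of 2586 bases against 1087. Where a coding transcript matched, 1382 of 1421 members of replicate 1 (97.3%) and 354 of 409 of replicate 2 (86.6%) ended before its stop codon. For 54 and 53 members no annotated transcript with the same first introns went on with further introns, so there the class of the authors could not be followed in the annotation.

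The deposited ends were seldom free positions. In replicate 1 88.8% and in replicate 2 79.8% of member ends coincided with an annotated exon boundary, and only 39 and 12 members ended 1 to 300 bases from one, against 130 and 85 farther away. Few ends thus lay within 300 bases of a boundary without being on it. Read ends were not compared with model ends, so how closely a model's end marks where its reads stopped was not tested. In replicate 1, 861 members (56.9%, interval 54.4 to 59.5) stopped at the end of an internal exon, 426 (28.2%) at the end of another annotated transcript, 56 (3.70%) at the start of an exon and 169 (11.2%) between boundaries. In replicate 2 the counts were 176 (36.7%, interval 32.3 to 41.2), 186 (38.8%), 21 (4.38%) and 97 (20.2%). An end that is both an internal exon end and a transcript end, such as that of Psmd1, was counted as a transcript end only. Against the matching transcript, 85.4% of 1458 members of replicate 1 stopped inside the exon that follows their last intron, 9.53% in the intron after it and 5.08% beyond that intron. In replicate 2 these shares were 63.7%, 17.6% and 18.7% of 427 members.

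**Figure D1:**
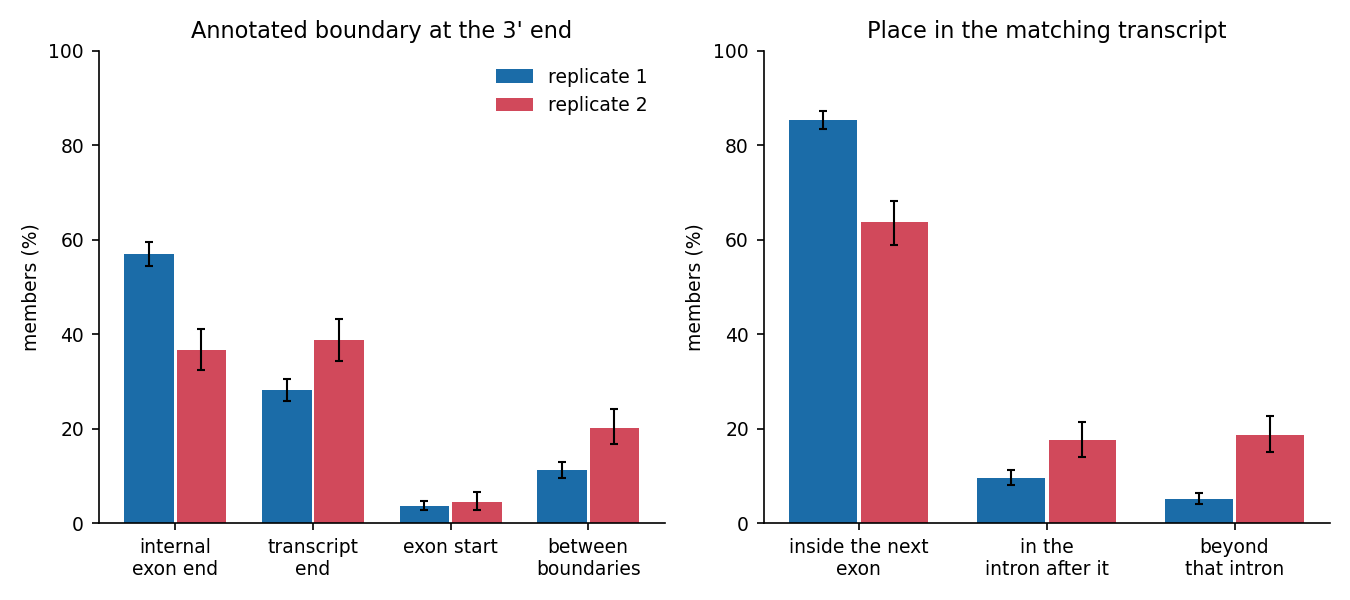
Place of the 3′ ends of members in each library. Bars give the percentage of members and error bars the 95% exact interval for counting error; on the left by the annotated boundary at the end (all 1512 and 480 members), on the right by the place in the matching annotated transcript (1458 and 427 members). Stops inside the next exon were 85.4% in replicate 1 and 63.7% in replicate 2.

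A part of the members reached the annotated end of a coding transcript of the gene. They ended at the end of a protein-coding transcript that the annotation does not tag as incomplete. There were 40 such members in replicate 1 (2.65%, interval 1.90 to 3.59) and 55 in replicate 2 (11.5%, 8.75 to 14.7). Among models of 3000 bases or more these were 5 of 33 and 26 of 137. Relative to that transcript, which need not be the matching one, these members do not lack the 3′ end. How many of them had read through introns on the way was not counted. Of all members that ended beyond the intron after the next exon of the matching transcript, most ended at an annotated transcript end of any type. These were 52 of 74 in replicate 1 and 57 of 80 in replicate 2. Of the members at an annotated transcript end, every transcript ending there was tagged as lacking its 3′ end for 131 of 421 in replicate 1 and 34 of 182 in replicate 2, and a retained-intron transcript ended there for 126 and 53. Cyp21a1, the steroid 21-hydroxylase, had 4 members that ran to the annotated end, with 48, 41, 36 and 15 reads in replicate 2 and 0 in replicate 1. These are uncertain where the reads could be split with the near-identical pseudogene Cyp21a2-ps. Cyp11a1, the side-chain cleavage enzyme that makes pregnenolone from cholesterol, had 112 such reads in 4 members of replicate 2 and 18 in 1 member of replicate 1.

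In an intron of the gene, outside every annotated exon, ended 94 members of replicate 1 (6.22%, interval 5.05 to 7.55) and 58 of replicate 2 (12.1%, 9.30 to 15.3). The mean share was 9.16% ± 4.16 (SD, n = 2). By reads these shares were 4.71% and 11.9%. Length moved with this share. Of models of 2000 to 3000 bases, 22 of 193 (11.4%) in replicate 1 and 30 of 262 (11.5%) in replicate 2 ended in introns. Of those of 3000 bases or more, 11 of 33 and 24 of 137 did. Model length includes the bases read into an intron, so it is in part set by the place of the end. Leaving out retained-intron transcripts from the annotation raised the shares to 9.07% and 18.0%, and counting only transcripts that share the model's first introns to 9.67% and 20.4%. The median distance from such an end to the nearest exon was 602.5 bases in replicate 1 (94 members in 82 genes) and 1033 bases in replicate 2 (58 members in 42 genes), and only 4 and 0 of them lay within 20 bases of an exon. No genome of this build was at hand, so the bases around intron ends were not read.

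The 10 intron-ending members of highest mean level included genes of the steroid-producing cells. Star, which brings cholesterol into mitochondria, had a member of 5 introns with 96 reads (113 CPM) in replicate 1 and 19 (34.8 CPM) in replicate 2. Its ends, on chromosome 8 at 25812429 and 25812423, lay 6 bases apart, 546 bases into the last intron. It was 0.803% of the Star reads in replicate 1 and 0.123% in replicate 2, so it was a minor product of a highly read gene. Of the 6 Star members 5 ended in this intron, and in replicate 2 all 5 of them had the same end. The sterol and lipoprotein receptor gene Scarb1 had 40 and 38 reads (47.1 and 69.7 CPM) in a member of 11 introns, with the same end in both libraries, at 125280646 on chromosome 5, 459 bases into an intron of 3239 bases.

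A pair of aldo-keto reductase genes was also among the 10. Akr1b7, which reduces lipid aldehydes in the adrenal cortex, had a member with 11 reads (13.0 CPM) in replicate 1 and 108 (198 CPM) in replicate 2, but its ends lay 879 bases apart, so the libraries do not show the same stop. Akr1cl had 54 and 61 reads (63.6 and 112 CPM) with ends 3 bases apart, at 65023124 and 65023127 on chromosome 1, 1536 bases into an intron of 2670 bases. That model was 2.02% of the Akr1cl reads in replicate 1 and 21.6% in replicate 2. Cyp11b1, the 11-beta-hydroxylase, had 7 members of which 5 ended in introns, and 5 had 1 common end in each library, at 74837459 in replicate 1 and 74837578 in replicate 2 on chromosome 15. This gene was chosen after its values were seen, and its reads could be split with the paralog Cyp11b2.

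Outside steroid synthesis, the RNA-binding protein gene Ybx1 had the intron-ending member of highest mean level, with 194 reads (229 CPM) in replicate 1 and 2 reads (3.67 CPM) in replicate 2. Its end lay 4 bases past an annotated exon end, so it is an intron end by the rule only, and the gene has processed copies with which reads could be split. Abcb1b, a P-glycoprotein efflux pump, had 132 and 3 reads, with ends 1026 bases into its intron at 8799832 and 8799825 on chromosome 5. The fibroblast growth factor receptor gene Fgfr2 showed the opposite order, with 5 and 54 reads (5.89 and 99.0 CPM) in a model of 1 intron that stopped at 130259856 on chromosome 7 in both libraries, 1893 bases into an intron of 32956 bases. It was 8.62% of the Fgfr2 reads in replicate 1 (interval 2.86 to 19.0) and 29.0% in replicate 2 (22.6 to 36.1). Th, the tyrosine hydroxylase of chromaffin cells, had 66 and 1 reads, and Snx6, a sorting nexin, 49 and 0. Pcsk5 had 15 and 23 reads in its first member, with ends 11 bases apart, and 6 of its 9 members ended in introns.

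Of the 10 exon-ending members of highest mean level, 8 were higher in replicate 1. Hsp90ab1, the constitutive cytosolic HSP90 chaperone, had 3461 reads (4078 CPM) in replicate 1 and 39 (71.5 CPM) in replicate 2 in a model of 875 bases that kept 5 of 10 introns. Both libraries gave the end 45570445 on chromosome 17, which is also the end of an annotated retained-intron transcript. The model was 83.0% of all Hsp90ab1 reads in replicate 1 (81.9 to 84.2) and 2.92% in replicate 2 (2.09 to 3.98).

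Hspd1, the mitochondrial chaperonin HSP60, had 760 and 21 reads (895 and 38.5 CPM), and the spliceosome scaffold gene Srrm2 575 and 2 reads (677 and 3.67 CPM). Kif5b, the heavy chain of the motor kinesin-1, had 456 and 31 reads (537 and 56.9 CPM) and the HSP40 cochaperone gene Dnaja1 483 and 1 (569 and 1.83 CPM). Each of these 4 had the same end in both libraries although the levels differed. All 4 ends lie on annotated boundaries, which models with the same introns can be given alike. In replicate 2 the ends of Srrm2 and Dnaja1 rest on 2 reads and 1 read. Eif5, a translation initiation factor, had 377 reads (444 CPM) and 0, at least 80.7-fold higher in replicate 1 when 3 counts are set for the 0. Hsp90b1, the HSP90 of the endoplasmic reticulum, had 345 and 12 reads, and the nuclear speckle gene Son 407 and 3. The Son models shared their introns but ended 5235 bases apart, inside a long exon.

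A pair of abundant members did not follow this order. Psmd1, a base subunit of the proteasome cap, had 112 reads (132 CPM) in replicate 1 and 217 (398 CPM) in replicate 2 in a model of 2971 bases that kept 21 of 24 introns. It was 51.9% of the Psmd1 reads in replicate 1 (45.0 to 58.7) and 64.8% in replicate 2 (59.4 to 69.9), and its ends lay 51 bases apart. Map1b, a microtubule-associated protein of neurons, had 142 and 124 reads (167 and 227 CPM), 67.9% and 93.2% of the reads of the gene. Both libraries gave it 1 end, which is also an annotated transcript end. The Map1b model was 2318 bases long, while the longest of the other 8 exon-ending members, that of Kif5b, had 1527 bases.

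**Figure D2:**
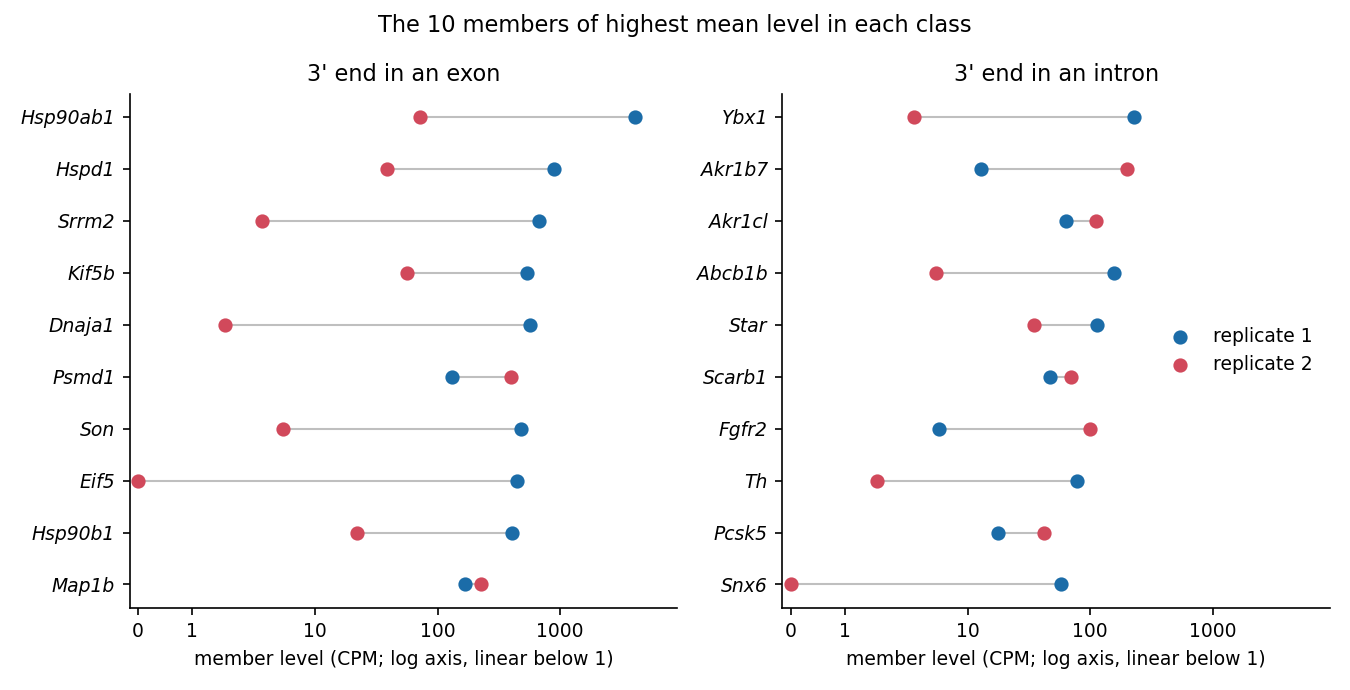
Level of the 10 members of highest mean level that ended in an exon (left) and in an intron (right). Points are the CPM of each library on a log axis that is linear below 1 CPM, and grey lines join the libraries. Among the exon-ending members Psmd1 and Map1b were higher in replicate 2 and the other 8 in replicate 1; Eif5 and Snx6 had 0 reads in replicate 2.

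Several genes, chosen here for their number of members after the values were seen, held a ladder of models with successive stops. Eprs, a bifunctional aminoacyl-tRNA synthetase, had 8 members keeping 6 to 18 introns, with 565 and 88 reads and a different end for each model read in a library. Eif3a, the scaffold of initiation factor 3, had 6 members keeping 11 to 18 introns and a different end for each. A model that keeps more introns and stops inside its next exon has to end farther on. Different ends in such a ladder thus follow in part from how members are defined. Several intron sets with 1 end were also found. In all, 153 of 1512 members of replicate 1 (10.1%) and 69 of 480 of replicate 2 (14.4%) shared their 3′ end with another member of the gene, counted over all members, also those of the 796 genes with 1 member. Among intron-ending members these were 10 of 94 and 15 of 58.

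Adenine-rich sequence next to the ends was measured along the matching annotated transcript, for ends inside its exons. Of 1279 members of replicate 1 with 20 transcript bases after the end, 431 (33.7%) had 10 or more adenines there, and 126 of 291 in replicate 2 (43.3%), while 7.33% and 7.24% of all 20-base windows of the same transcripts did. The richest window within 300 bases was taken as a further measure, chosen after the distances of the ends were seen. It held at least 14 adenines for 742 of 1306 members of replicate 1 (56.8%) and 203 of 332 of replicate 2 (61.1%), against 23.8% of 12633 and 21.3% of 5190 other internal exon ends of the same transcripts. With at least 12 adenines in the window the shares were 93.9% and 89.2% against 64.9% and 60.8%, and with at least 16 they were 12.4% and 15.7% against 3.67% and 2.89%. The search stopped at the ends of the transcript, so exon ends near its start, that of exon 1 among them, were searched over fewer bases. The effect of this on the shares was not tested. Cutoffs were looked at before these 3 were kept, so the sizes are a description.

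The share differed among subsets of members, which were chosen after the values were seen. Members that stopped at an internal exon end, the same kind of place as the comparison, reached 14 adenines in 56.5% and 65.5%. Members with 5 or more reads in both libraries did so in 61.7% of 180 (interval 54.1 to 68.8), and members read only in replicate 1 in 54.5% of 789 (50.9 to 58.0). Among members of many reads the shares were 71.9% of 278 with at least 20 reads and 77.6% of 76 with at least 50 in replicate 1, and 68.9% of 61 and 69.2% of 13 in replicate 2. The part of adenine-rich sequence in the ends was not tested.

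The signal AATAAA or ATTAAA, searched on the transcript strand, stood in the 50 bases up to the end of 132 of 1306 members of replicate 1 (10.1%) and 66 of 332 of replicate 2 (19.9%). It was found in 4.65% and 4.20% of all 50-base windows of those transcripts and in 71.0% of 1009 and 78.7% of 268 of their last 50 bases. For the other ends these letters are not in that window. Members that ended at the annotated end of a coding transcript were not left out of these counts.

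**Figure D3:**
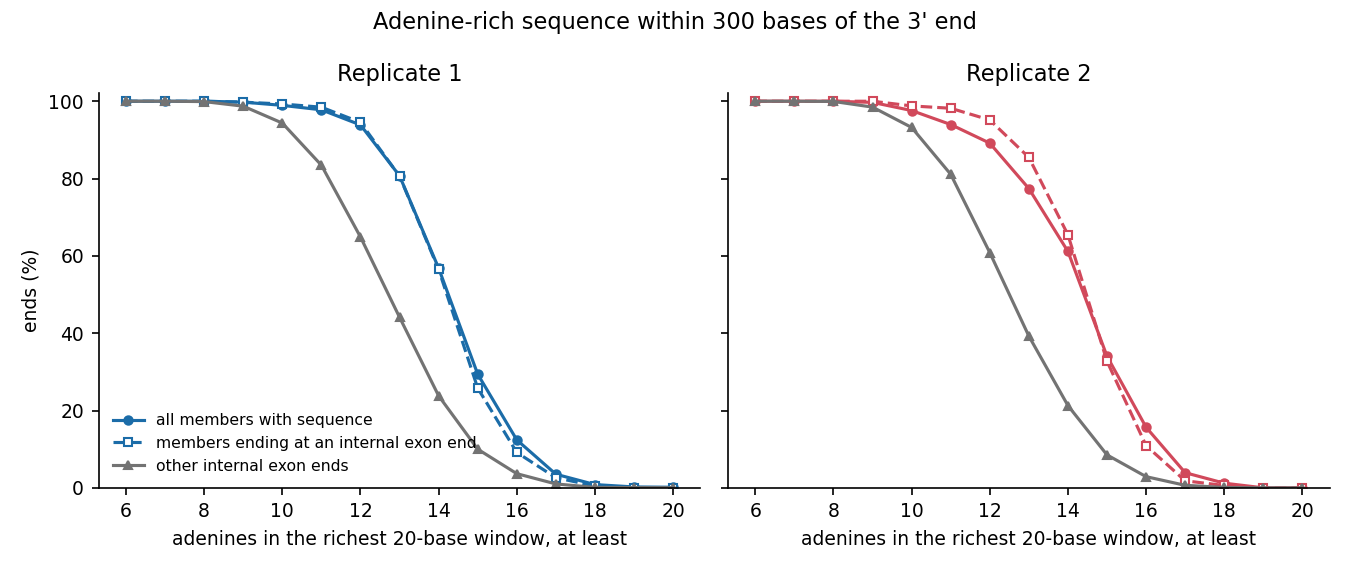
Adenine-rich sequence near the 3′ ends in replicate 1 (left) and replicate 2 (right). Lines give the percentage of ends whose richest 20-base window within 300 bases holds at least the number of adenines on the horizontal axis, for all members with sequence (1306 and 332), for those at an internal exon end and for other internal exon ends of the same transcripts (12633 and 5190). At 14 adenines members stood at 56.8% and 61.1% and other exon ends at 23.8% and 21.3%.

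Detection in the other library was unequal. Of the 1512 members of replicate 1, 631 (41.7%, interval 39.2 to 44.3) had at least 1 read of the same introns in replicate 2, whereas 418 of the 480 members of replicate 2 (87.1%, 83.7 to 90.0) were read in replicate 1. Known models were found in the other library for 86.8% of 7430 and 92.7% of 6881, and incomplete models lacking the 5′ part for 65.3% of 1014 and 72.1% of 899. The known models were deeper, with a median of 19 and 16 reads against 9 for members. Among models of 5 to 20 reads, 80.2% and 88.1% of known models were found. Models lacking the 5′ part were found for 61.5% and 69.9%, and members for 37.4% and 84.7%. Length moved with detection. Of replicate 1 members under 1000 bases 123 of 688 (17.9%) were read in replicate 2, of those of 1000 to 1500 bases 130 of 372 (34.9%), of those of 1500 to 2000 bases 167 of 226 (73.9%) and of those of 2000 to 3000 bases 178 of 193 (92.2%). In the other direction 235 of 262 members of 2000 to 3000 bases (89.7%) and 75.2% of 137 of 3000 bases or more were found.

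**Figure D4:**
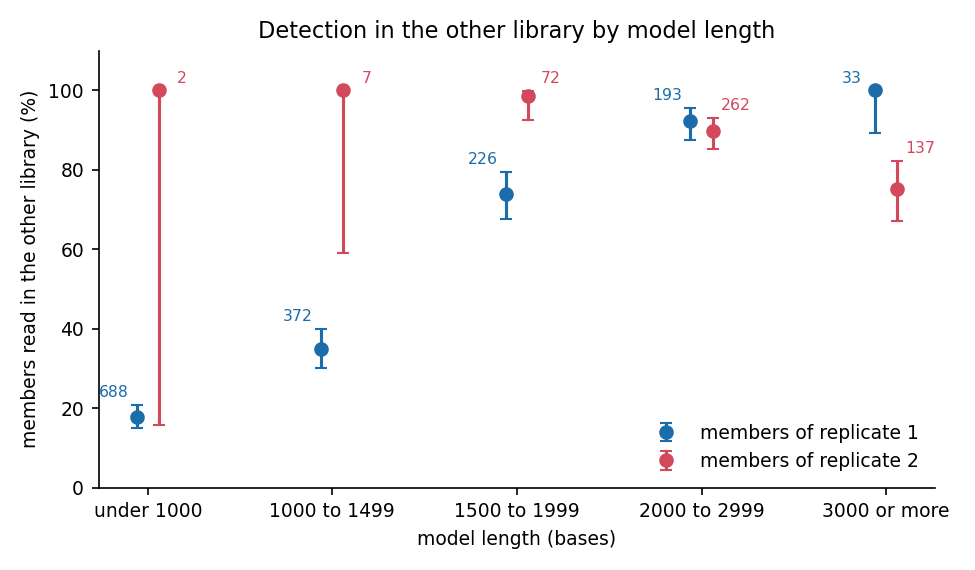
Members with at least 1 read in the other library, by model length. Points give the percentage, bars the 95% exact interval for counting error, and numbers the members in each class. Detection of replicate 1 members in replicate 2 rose from 17.9% under 1000 bases to 92.2% at 2000 to 3000 bases.

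The ends of prefix models read in both libraries were compared. Most ends sit on annotated boundaries, and models with the same introns can be given the same boundary, so agreement there says little of where reads stopped. Of 794 matched members 610 (76.8%, interval 73.7 to 79.7) had ends at most 50 bases apart, and 540 had identical ends. For the 115 members that ended between boundaries in both libraries, 74 (64.3%) lay within 50 bases and 17 had identical ends. Of the 76 that ended in an intron in both, 50 lay within 50 bases.

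Per gene, the share of spliced prefix reads was set between the libraries with Fisher's exact test, two-sided, adjusted by Benjamini-Hochberg over the 3092 genes with at least 20 reads in each library. At an adjusted p of 0.05 the share was lower in replicate 2 for 369 genes (11.9% of those tested) and higher for 41 (1.33%). Over all genes tested the median difference was -0.27 percentage points, and 879 genes had no prefix read in either library. The 651 tested genes with a member had 312 calls lower and 33 higher in replicate 2, but these reads helped to choose the members, so nothing is read from that share.

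The genes named are the 5 of largest difference in each direction. Sec62, a component of protein transport into the endoplasmic reticulum, fell from 278 of 293 reads (94.9%) to 1 of 27 (3.70%; Fisher's exact test, adjusted p = 2.0e-24). Tcea1, a transcription elongation factor, fell from 86.0% to 1.82% (adjusted p = 4.1e-25) and the ubiquitin ligase gene Wwp1 from 86.5% to 3.45% (adjusted p = 9.6e-15). Son fell from 90.8% to 8.82% (adjusted p = 2.0e-23), and Hsp90ab1 from 3620 of 4168 reads (86.9%) to 79 of 1334 (5.92%), with a p too small to be written. The first members of these genes were short, with 929 bases in Sec62, 359 in Tcea1, 342 in Wwp1, 371 in Son and 875 in Hsp90ab1.

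In the other direction, the chromatin reader gene Brd2 rose from 3 of 30 reads to 24 of 43 (55.8%; Fisher's exact test, adjusted p = 0.00087) and Atg3, an enzyme of autophagy, from 2.68% to 44.0% (adjusted p = 5.2e-06). The scaffold gene Iqgap1 rose from 26.2% to 61.8% (adjusted p = 0.0056), the translation repressor gene Gigyf2 from 20.0% to 55.6% (adjusted p = 0.00066) and Ubfd1 from 7.55% to 40.9% (adjusted p = 0.012). The first members of these genes were long, with 2541 bases in Brd2, 2838 in Atg3, 3161 in Iqgap1, 2849 in Gigyf2 and 2513 in Ubfd1. The difference between the libraries in the read-weighted length of known transcripts moves with both directions, and its part in these shares was not tested.

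**Figure D5:**
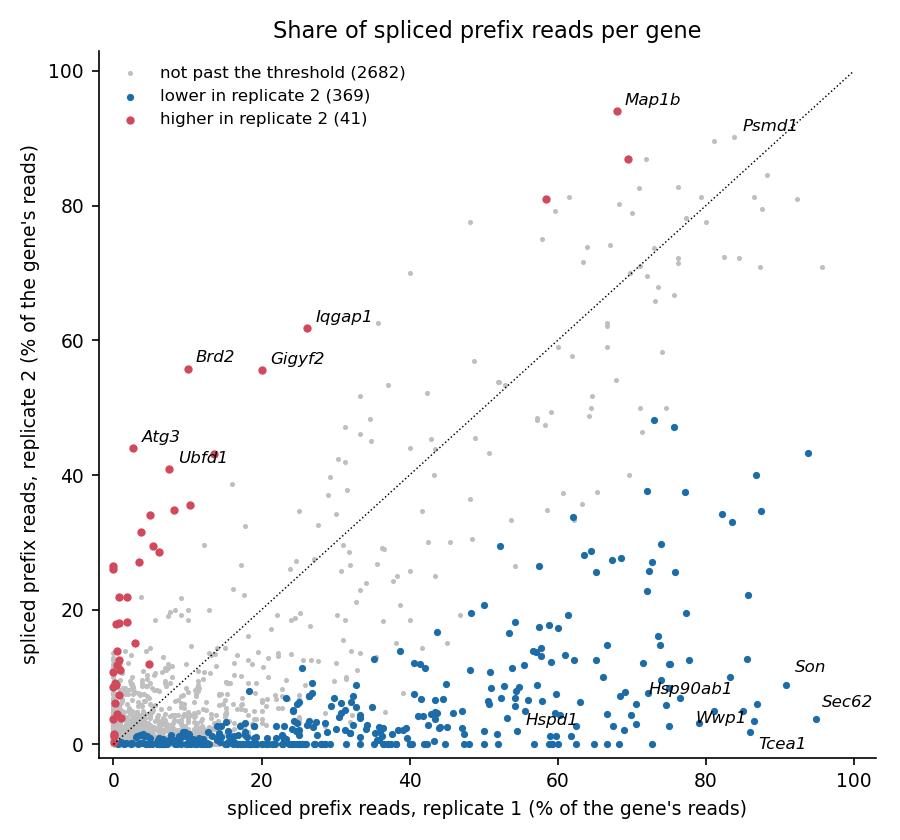
Share of spliced prefix reads per gene in replicate 1 (horizontal) and replicate 2 (vertical), as a percentage of the reads of the gene, for the 3092 genes tested. Blue points are the 369 genes with a lower and red points the 41 with a higher share in replicate 2; the dotted line marks equal shares. Psmd1 and Map1b lie high in both libraries, while Sec62, Tcea1 and Wwp1 lie high in replicate 1 only.

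For some genes prefix reads were the larger part in both libraries. The share was above 50% for 173 genes in replicate 1 and 57 in replicate 2, and for 47 genes in both, among them Psmd1, Map1b, the cohesin gene Smc1a, the ubiquitin ligase gene Ubr1, the mRNA export gene Thoc2 and the chromatin gene Kmt2e. These 4 beyond the rule were chosen after their values were seen. Smc1a had 83 of 94 reads in replicate 1 (88.3%) and 71 of 84 in replicate 2 (84.5%), Ubr1 27 of 34 (79.4%) and 52 of 64 (81.3%), Thoc2 29 of 38 (76.3%) and 67 of 81 (82.7%), and Kmt2e 77 of 89 (86.5%) and 39 of 48 (81.3%). The longest coding transcripts of these 47 genes had a median of 6440 bases, against 2934 over 3054 tested genes with one. By that length, prefix reads were 1.09% and 1.67% of the reads of 594 genes under 2000 bases, 6.36% and 1.41% of 1630 genes of 2000 to 4000 bases, 12.6% and 4.12% of 556 genes of 4000 to 6000 bases, and 27.8% and 11.8% of 274 genes beyond.

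Gene lists are set beside all 1773 members, of which 1354 stopped inside the next exon, 133 ended in an intron outside annotated exons and 1353 had the higher CPM in replicate 1. They are also set beside the 11.9% of all tested genes with a lower and the 1.33% with a higher prefix share in replicate 2. Of the 3092 tested genes 651 had a member, while the lists also count genes that were not tested. No test compared the lists. Of the chaperone genes 10 of 14 had members, 40 in all, of which 34 stopped inside the next exon, none in an intron outside annotated exons and 35 had the higher CPM in replicate 1. The median length of the 40 was 1226 bases, beside 1253 for all members. Chaperone members held 27.3% of the chaperone reads in replicate 1 and 1.73% in replicate 2. Of these member reads, Hsp90ab1 alone had 3611 of 5828 in replicate 1 and 71 of 233 in replicate 2. The prefix share was lower in replicate 2 for 9 of the 12 tested chaperone genes and higher for 0, with a median difference of -17.6 percentage points beside -0.27 over all genes. The 9 were Dnaja1, Hsp90aa1, Hsp90ab1, Hsp90b1, Hspa4, Hspa5, Hspa9, Hspd1 and Hsph1. Hspa8, the constitutive HSP70, did not pass, at 0.642% and 0.352% (Fisher's exact test, adjusted p = 0.13).

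In the steroidogenesis list, the 8 genes with members, of 15, had 29 members, and 24 of the 29 had the higher CPM in replicate 2. These members were long, with a median of 2483 bases against 1226 for chaperone members and 1253 for all members. Weighted by reads, known transcripts were also longer in replicate 2. The part of length in the order of the libraries was not tested. Only 2 of the 29 stopped inside the next exon, while 6 ended in the intron after it, 8 beyond that intron and 13 had no longer matching transcript. In an intron outside annotated exons ended 11 of the 29, beside 133 of all 1773. The end of a coding transcript was reached by 9 of the 29. Members held 0.506% of the reads of the list in replicate 1 and 1.09% in replicate 2. Of 13 tested genes the share was higher in replicate 2 for Cyp11a1, Cyp21a1, Fdx1 and Hsd3b1 and lower for Scarb1 and Star, with a median difference of 0.37 points. The differences were small: Cyp11a1 rose from 0.958% to 3.87% (Fisher's exact test, adjusted p = 1.0e-25), Cyp21a1 from 0.0781% to 1.24% (adjusted p = 1.2e-32), and Star fell from 1.06% to 0.389% (adjusted p = 1.2e-09). Cyp11b1, at 0.778% and 1.15%, did not pass (adjusted p = 0.19). The first member of the list by level was a Cyp11a1 model with 21 and 92 reads that read 1520 bases into an intron of 4211 bases and ended with an annotated retained-intron transcript.

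Chromaffin genes had 10 members in 7 of 29 genes, 9 of them with the higher CPM in replicate 1, beside 1353 of all 1773. The prefix share was lower in replicate 2 for Chga, Pam, Scg3, Snap25 and Th, 5 of 16 tested beside 11.9% of all genes, and higher for 0. The first member was a model of Chga, the granule protein chromogranin A, with 202 reads (238 CPM) in replicate 1 and 1 (1.83 CPM) in replicate 2. Chga as a gene was read more in replicate 2, at 5985 against 2558 CPM, while this model was read less there.

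Splicing factor genes had 26 members in 9 of 27 genes, none in an intron outside annotated exons, with 7 of 21 tested genes lower and 1, Srsf2, higher in replicate 2, beside 11.9% and 1.33% of all genes. Sf3b1, the branch-site protein of the U2 particle, led with 129 and 25 reads. Cholesterol supply had 5 members in 3 of 22 genes, led by a Soat1 model of 10 and 0 reads, with 3 of 16 tested genes lower and 0 higher. The respiratory chain had 3 members in 3 of 24 genes, led by Atp5c1 with 5 and 2 reads, with 3 of 14 tested genes lower and 0 higher. With so few genes, the counts of the last 2 lists lie near the share over all genes.

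Genes of the machinery that cuts RNA are set beside the same 651 of 3092 tested genes with a member. Of 23 genes of 3′ end processing 4 had 1 member each, led by the poly(A) polymerase gene Papola with 7 and 9 reads. Its end was the same in both libraries and is also an annotated transcript end. Of 10 tested genes 1, Cpsf2, was lower in replicate 2, from 12 of 32 reads to 0 of 67, and 0 were higher. Of 10 genes of the U1 particle 1, Snrpd3, had a member, of 12 and 0 reads, and the 1 gene tested did not pass. Pcf11 had 15 reads in replicate 1, of which 7 were in its 1 member, and 1 read in replicate 2, too few for a comparison. Cstf3 had 30 and 21 reads and no prefix read in either library, which allows a share of up to 10% and 14.3% by a floor of 3 counts.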

How the data were processed

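Per the labels, long-read sequencing covered 2 adrenal gland libraries of total RNA, in 1 group. The deposited tables give raw read counts of transcript models, assigned with TALON, which the authors' model annotation names as its source, on mm10 and GENCODE M21 per the deposited description of each library; the sources used here give no platform, aligner or priming. Models were matched by chromosome, strand and all introns. CPM was computed on all 848782 and 545229 reads. Ends were placed in the exons of all GENCODE transcripts of the gene. A genome was assumed in the plan for the adenine measure; none was used, so sequence was read along the matching transcript, for 1306 of 1512 and 332 of 480 members. The gene test was Fisher's exact test (scipy 1.17.1), two-sided, on genes with at least 20 reads per library, adjusted by Benjamini-Hochberg; it treats reads as independent. It was tested on simulated reads, where it missed most changed genes and so failed the pass condition first set; that condition was then replaced by one on genes of many reads, most of which it recovered. Scaling alternatives used edgeR 4.0.16 and DESeq2 1.42.0. Named were the 10 members of highest mean CPM with an exon end and with an intron end, the first member of each list, the 5 tested genes of largest difference in each direction, Pcf11 and Cstf3; other names were chosen after their values were seen. The members and lists were chosen with earlier results of these data known. Boundary classes, length classes, transcript-end tags, the 300-base adenine measure and its subsets, shared ends and gene length classes were added after the data were seen. One further sequence is not reported here.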

Additional observations from a re-analysis of the deposited data

How the results depend on the processing

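No paired analysis was possible because the 2 libraries form 1 group and no groups were compared. The intron share of members, a mean of 9.16%, became 13.5% without retained-intron transcripts and 15.0% with matching transcripts only, and by reads 8.31% became 13.4% with matching transcripts only. The share with adenine-rich sequence after the end, 38.5%, was 23.9% with at least 12 adenines and 57.0% with at least 8. The share with 14 adenines within 300 bases, 59.0%, was 91.5% with 12, 14% with 16 and 63.2% in models of 2000 to 3000 bases, all chosen after seeing the data. Matched ends within 50 bases, 76.8%, were 73.7% within 10 bases and 64.3% between boundaries, the latter chosen after seeing the data. Genes past the threshold numbered 410, and 233 with at least 50 reads in each library, where fewer genes were tested. The summed member level in replicate 2 was 0.378 of that in replicate 1, 0.274 with TMM scaling, 0.258 with DESeq2 size factors and 0.424 without the Hsp90ab1 member of most reads, an alternative added after seeing the data. With known reads alone as the other reads, the Psmd1 difference in prefix share turned from 6.35 to -0.43 percentage points (Fisher's exact test, adjusted p = 1), neither past the threshold, and that of Map1b fell to 4.09 points (adjusted p = 0.59). For these values, other than the count with fewer genes, the cause was not tested. Leaving out 1 library at a time gave 1.37% to 3.62% of reads in members, 6.22% to 12.1% of members and 4.71% to 11.9% of member reads ending in an intron, 29.1% to 38.8% within 50 bases of an annotated 3′ end, 50% to 70% of introns kept, 33.7% to 43.3% with adenine-rich sequence after the end, and 56.8% to 61.1% with 14 adenines; it gave no value for detection in the other library, matched ends or the gene test, which need both. With 1 read at 1.18 and 1.83 CPM, a member at 0 reads may have up to 3.53 and 5.50 CPM by a floor of 3 counts.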
